A study of Mus musculus with 6 samples.

Results

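Proz encodes protein Z, a vitamin K-dependent plasma protein. It lies on mouse chromosome 8 in a row with Mcf2l, F7, F10, Pcid2 and Cul4a, and these 6 genes were described together, out of 24391 gene symbols in the deposited count table. The genes were taken by symbol. Proz was chosen by its measured counts, as the only gene called lower in Celf2 null libraries, and the other 5 by position, since they adjoin it on the chromosome, with the question whether they share its fall. All 6 symbols had a row in the table. In the reference annotation the block holds 0 other protein-coding genes, in the order Mcf2l, F7, F10, Proz, Pcid2, Cul4a.

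The libraries came from newborn mouse hemibrains at postnatal day 0, 3 labelled Celf2 -/- (null, replicates 2, 4 and 10) and 3 labelled Celf2 +/- (heterozygous, replicates 6, 7 and 11). CELF2 is an RNA-binding protein that acts on splicing, stability and translation of its target transcripts. The control pups carry 1 Celf2 allele, so the comparison is null against heterozygous and no wild type library was used. A hemibrain is a mixture of all its cell types, so fewer cells of a type and less RNA per cell cannot be told apart. Wherever 3 values are listed per genotype, heterozygous ones stand in the order of replicates 6, 7 and 11 and null ones in the order 2, 4 and 10. The labels give no litter or batch, and p-values measure only the spread between these 6 samples.

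The libraries held 28831997 to 36531980 counts. The ribosomal RNA precursor Rn45s took 11.8% of counts in null replicate 2 and at most 1.27% in the others. Levels are given in CPM, read counts scaled to a common library size. Heterozygous libraries held 459, 403 and 362 CPM of Celf2, the targeted gene, and null libraries 448, 390 and 331 CPM. The groups overlapped, with a log2 fold change of -0.07 (SE 0.12, edgeR adjusted p = 0.955). A gene total does not show which exons were read, so it does not check the labels, and every direction below rests on them. Below 3 counts in a library, which is 0.0807 to 0.118 CPM, a low level cannot be told from absence.

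Clotting runs as a chain of proteases that cut and activate each other. Tissue factor (F3) binds factor VII (F7) to start it, the pair activates factor X (F10), and active factor X makes thrombin. Protein Z (Proz) has the same Gla, EGF-like and protease-like layout as factors VII and X but lacks protease activity, and it serves as cofactor of the inhibitor Serpina10 against active factor X. The liver is the usual source of these plasma proteins. The other genes of the row have unrelated roles: Mcf2l encodes a guanine nucleotide exchange factor, Pcid2 a subunit of the TREX-2 complex of mRNA export, and Cul4a the scaffold of a family of ubiquitin ligases.

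The promoters of the row differed in CpG content, a feature that the choice of genes did not use. The RefSeq promoter table (build GRCm38.p6) has 300-base windows, 250 bases before and 50 after a start, and all 6 genes had at least 1 of its 32841 windows. The median window holds 7 CpG dinucleotides. F7 had 5, F10 5 and Proz 8, and Pcid2 had 36 and Cul4a 43, more than 93.8% and 97.4% of all windows. Mcf2l had 6 windows, with 3 to 22. Pcid2 and Cul4a start in opposite directions and their windows share 221 bases. Of the 11 windows of the 6 genes, 0 held the letters TATAAA on either strand, as 13.6% of all windows do. The windows of F10, Proz and Cul4a are shown to compare a clotting factor promoter, the promoter of the gene that differed and that of a neighbour with many CpG. They are written 5′ to 3′ on the + strand, with CpG in capitals, from chr8:13037058-13037357, chr8:13060658-13060957 and chr8:13105373-13105672.
F10: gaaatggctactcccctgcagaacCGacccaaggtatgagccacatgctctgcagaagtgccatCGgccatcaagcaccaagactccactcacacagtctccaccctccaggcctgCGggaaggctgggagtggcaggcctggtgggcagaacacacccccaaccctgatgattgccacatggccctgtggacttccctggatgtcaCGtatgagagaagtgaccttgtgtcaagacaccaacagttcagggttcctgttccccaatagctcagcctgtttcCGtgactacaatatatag
Proz: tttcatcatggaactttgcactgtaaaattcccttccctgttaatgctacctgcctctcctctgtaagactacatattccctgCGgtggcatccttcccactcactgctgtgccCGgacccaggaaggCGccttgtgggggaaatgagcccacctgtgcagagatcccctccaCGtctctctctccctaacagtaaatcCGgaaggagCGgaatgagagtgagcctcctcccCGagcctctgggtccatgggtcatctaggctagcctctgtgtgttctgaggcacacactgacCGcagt
Cul4a: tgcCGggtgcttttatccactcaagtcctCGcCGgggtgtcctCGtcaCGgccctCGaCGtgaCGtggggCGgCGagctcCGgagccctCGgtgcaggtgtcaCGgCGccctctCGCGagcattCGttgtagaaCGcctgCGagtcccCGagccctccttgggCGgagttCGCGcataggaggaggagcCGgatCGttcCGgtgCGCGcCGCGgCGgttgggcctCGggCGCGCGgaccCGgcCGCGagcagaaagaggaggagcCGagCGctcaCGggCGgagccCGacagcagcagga
The reference served only for order and sequence, because the submitters' processing notes name another mouse build, mm9. The files hold no chromatin or promoter data, so the windows bear on no count.

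Proz was read at a low level in every heterozygous hemibrain and at a lower one in every null hemibrain. It had 158, 138 and 183 counts in the heterozygous libraries, and 35, 34 and 42 counts in the null ones. In CPM these were 4.25, 4.65 and 5.21 against 1.38, 1.01 and 1.43. The lowest heterozygous library lay 2.98-fold above the highest null library, and the groups did not overlap. The means were 4.70 ± 0.48 and 1.27 ± 0.23 CPM (SD, n = 3 each), which is a log2 fold change of -1.89 (SE 0.22, 95% interval -2.37 to -1.41). Null libraries thus held 27.0% of the heterozygous Proz level (19.4% to 37.5%).

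This contrast chose Proz, so its values are a description and carry no test. Of 15925 genes tested, 0.00628% were called lower by edgeR's quasi-likelihood test (1 gene, Proz) and 0% higher. Its adjusted p of 0.0492 lay just inside the threshold of 0.05, and it lay above 0.05 in 10 of 15 alternative analyses, among them 5 of the 6 that left out 1 library. It reached 0.290 without null replicate 4, while the DESeq2 Wald test gave 3.18e-08. Just outside lay Camk2a, with a log2 fold change of -0.74 and an edgeR adjusted p of 0.0517. A further 23 tested genes had a more negative fold change than Proz, and 0 had a smaller p.

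Within each genotype the spread of Proz was close to what counting alone gives. The coefficient of variation of its CPM was 10.3% over heterozygous libraries and 18.1% over null libraries, where the mean counts alone give 7.91% and 16.4%. The highest library was 1.23-fold above the lowest in the heterozygous group and 1.42-fold above it in the null group. With counts summed per group, the heterozygous level was 4.70 CPM (479 counts, exact 95% Poisson interval 4.29 to 5.14) and the null level 1.25 CPM (111 counts, 1.03 to 1.51). These intervals cover counting error only. Proz was chosen by its test in these libraries, and that choice favours a gene with a small spread within groups. The spread and the intervals are therefore a description and lend no support to the difference.

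**Figure D1:**
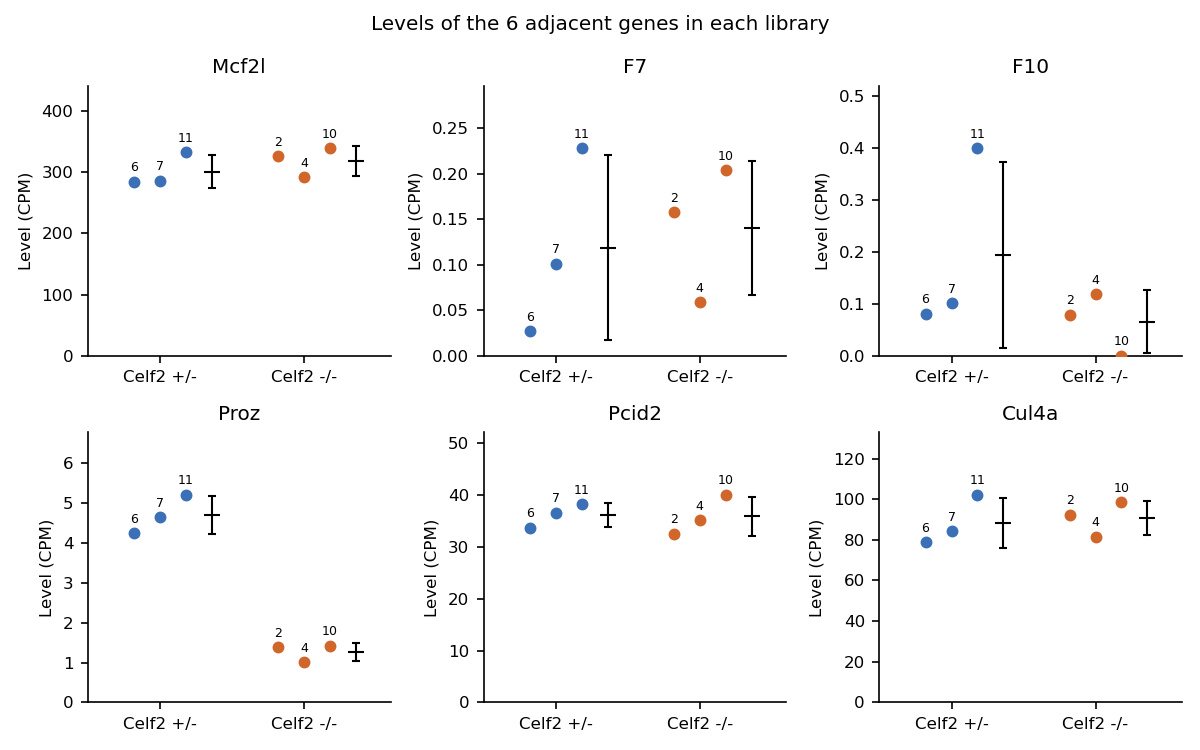
Level in CPM (y axis, from 0, separate scale per gene) of the 6 adjacent genes in each library, numbered by replicate, with the mean and SD of 3 libraries as black bars. Proz is the gene whose groups stand apart, at 4.25 to 5.21 CPM against 1.01 to 1.43 CPM, and the groups overlap for the other 5 genes.

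Of the other 5 genes, 3 had enough counts to be tested, and their intervals exclude a fall of the size seen for Proz. Of these 3, 0 were called lower and 0 higher by edgeR, where 0.00628% of all genes tested were called. Proz was chosen as the only gene called lower, so 0 lower calls among other genes, here and below, followed from that choice. At an unadjusted p of 0.05 edgeR also counted 0 of the 3, where 7.06% of all genes tested passed, and DESeq2 called 0 of them, where it called 0.402% of genes. The groups overlapped for all 5, including the untested F7 and F10, where 12.7% of genes tested did not overlap. With shares this low and so few genes, these counts do not set the neighbours apart from other genes.

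Pcid2, the next gene on the far side of Proz, was at 33.7, 36.7 and 38.3 CPM in the heterozygous libraries and at 32.6, 35.1 and 40.1 CPM in the null ones. Null libraries held both the lowest and the highest value. The fitted log2 difference was -0.01 (SE 0.11, 95% interval -0.25 to 0.23, edgeR adjusted p = 0.992). Null libraries held 99.3% of the heterozygous level, and the interval reaches down to 84.1%.

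Cul4a, which starts back to back with Pcid2, was at 78.9, 84.2 and 102 CPM in the heterozygous libraries. In null replicates 2, 4 and 10 it was at 92.3, 81.5 and 98.4 CPM, all inside the heterozygous range. The fitted log2 difference was 0.04 (SE 0.11, 95% interval -0.20 to 0.28, edgeR adjusted p = 0.974), with a lower limit of 86.8% of the heterozygous level.

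Mcf2l, at the other end of the row, was at 284, 285 and 332 CPM in the heterozygous libraries and at 325, 291 and 338 CPM in the null ones. Its groups overlapped, with 2 heterozygous libraries below every null library and heterozygous replicate 11 above 2 of them. The fitted log2 difference was 0.08 (SE 0.08, 95% interval -0.10 to 0.27, edgeR adjusted p = 0.906), with a lower limit of 93.1% of the heterozygous level. For all 3 tested neighbours the lower limit of the interval lay above the upper limit for Proz. So it did for 97.5% of the other genes tested, so this does not set the neighbours apart from genes elsewhere.

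F7 and F10, the clotting factor genes beside Proz, were near the limit of detection and did not pass the low-count filter. F7 had 1, 3 and 8 counts in the heterozygous libraries and 4, 2 and 6 counts in the null ones. The sums were 12 and 12 counts, and the null level was 115% of the heterozygous level (exact 95% interval of the ratio 47.3% to 280%, counting error only). This counting interval lies above the 27.0% found for Proz, and without heterozygous replicate 11 the ratio was 227% (68.7% to 964%). The coefficient of variation of F7 was 85.7% over heterozygous libraries, where counting alone gives 50%. An interval that held this spread would be wider, so whether F7 shares the fall or a part of it was not settled. At this depth a difference in F7 could go undetected.

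F10 had 3, 3 and 14 counts in the heterozygous libraries, and 2, 4 and 0 counts in the null ones. A count of 0 in null replicate 10 allows up to 0.102 CPM. Most of the heterozygous counts came from replicate 11, and the other 2 heterozygous libraries lay within the null range. The sums were 20 and 6 counts, a null level of 34.6% of the heterozygous level (exact interval 11.4% to 89.2%), but without heterozygous replicate 11 they were 6 and 6 counts and 75.5% (20.2% to 283%). The F10 interval includes the 27.0% of Proz in both cases, so whether F10 shares the fall could not be told at this depth. With no low-count filter, edgeR gave F10 a log2 fold change of -1.48 (SE 0.91, adjusted p = 0.887) and F7 one of 0.21 (SE 0.81, adjusted p = 0.982).

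Per base of gene length, Proz stood between its neighbours. In RPKM (CPM per kilobase of the deposited gene length), heterozygous means were 54.5 for Mcf2l, 24.4 for Cul4a, 15.0 for Pcid2, 1.96 for Proz, 0.0719 for F10 and 0.0639 for F7. In this order each step exceeded the spread between libraries except the last, since the F10 and F7 values overlapped. Pcid2 was 7.67-fold above Proz in heterozygous libraries and 28.1-fold above it in null libraries. The deposited length of Proz is 2398 bases, where all its exons in the reference annotation cover 5549 bases. The size of these steps therefore depends on the length used. Null means were 57.7 for Mcf2l, 25.01 for Cul4a, 14.9 for Pcid2, 0.530 for Proz, 0.0756 for F7 and 0.0244 for F10. Even in null libraries the lowest Proz value, 0.420 RPKM, lay above the highest F7 value, 0.123, and the highest F10 value, 0.148.

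Counts set against a neighbour in the same library need no scaling between libraries, and they gave the same separation. Proz counts were 12.6%, 12.7% and 13.6% of Pcid2 counts in the heterozygous libraries and 4.23%, 2.87% and 3.56% in the null ones. Against Cul4a they were 5.39%, 5.52% and 5.10%, and 1.49%, 1.24% and 1.45%. Against Mcf2l they were 1.50%, 1.63% and 1.57%, and 0.424%, 0.346% and 0.422%. In each case the groups lay far apart relative to the spread within each. The ratios among the neighbours overlapped between the genotypes, with Pcid2 at 41.2% ± 3.31 of Cul4a in heterozygous and 39.7% ± 4.00 in null libraries, and Cul4a at 29.4% ± 1.49 and 28.5% ± 0.54 of Mcf2l (SD, n = 3 each). These ratios use the Proz values that chose the gene and carry no test.

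**Figure D2:**
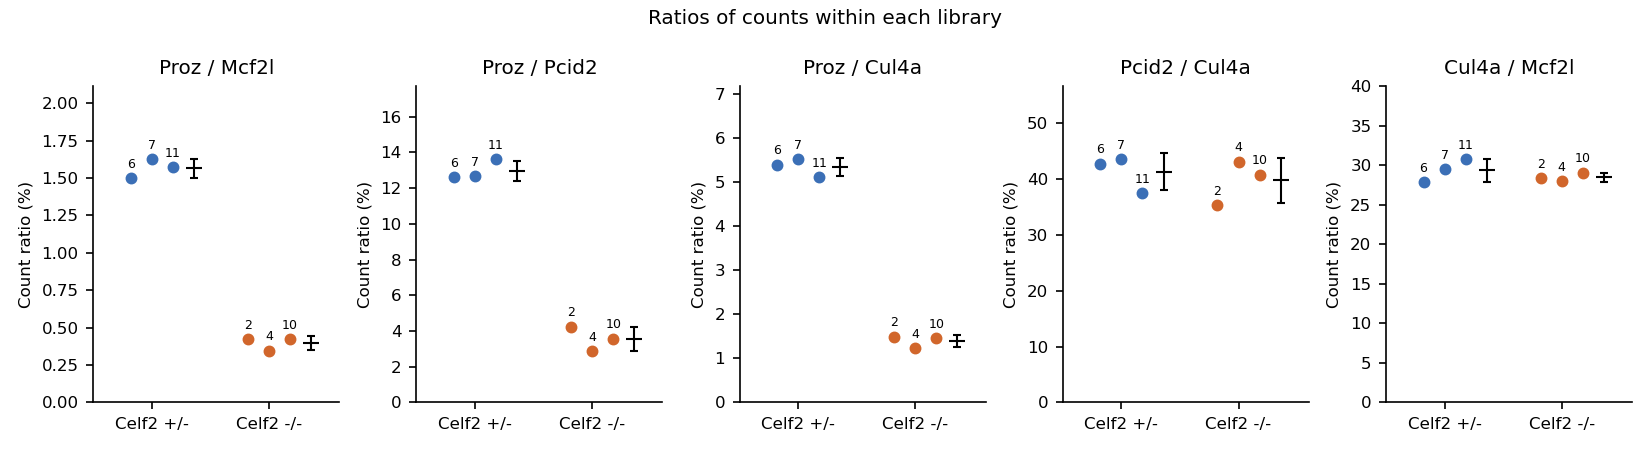
Ratio of counts of 2 genes within each library in percent (y axis, from 0), numbered by replicate, with the mean and SD of 3 libraries as black bars. The 3 ratios with Proz separate the genotypes, for example 12.6% to 13.6% against 2.87% to 4.23% of Pcid2, and the 2 ratios among neighbours overlap.

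Proz and Pcid2 are transcribed towards each other, which matters for how reads are assigned. In RefSeq their spans overlap by 551 bases at the 3′ ends, and in GENCODE M21 they are 1162 bases apart and share 0 exon bases. Whether the counting used strand is not given in the sources used here. Without strand, reads of Proz and Pcid2 in such a stretch cannot be told apart. Pcid2 itself was at 99.3% of its heterozygous level in null libraries. The share of Proz counts from that stretch was not tested. F10 ends 4237 bases before Proz starts in GENCODE, F7 ends 1498 bases before F10, Mcf2l ends 5128 bases before F7, and Pcid2 and Cul4a start 161 bases apart.

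Farther from Proz, the genes of the wider row were described in the same way. Of the 20 protein-coding genes annotated within 10 places of the row on either side, 19 had a row in the table and 13 passed the low-count filter. Of the 13, 0 were called lower and 0 higher by edgeR, where 0.00628% of all genes tested were called. At an unadjusted p of 0.05 edgeR counted 0, where 7.06% of all genes passed, and DESeq2 called 0, where it called 0.402%. With shares this low and 13 genes, the counts of 0 do not set the row apart from other genes. Their median log2 fold change was 0.05, where it was -0.00093 over all genes tested. Fold changes ran from -0.66 for Tmem255b to 0.12 for the neural progenitor transcription factor Sox1.

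On the Mcf2l side the nearest genes were Atp11a, a phospholipid flippase (log2 fold change 0.05, edgeR adjusted p = 0.971), and Tubgcp3, a subunit of the gamma-tubulin complex (0.03, adjusted p = 0.974). Spaca7, a sperm acrosome gene, had 0 counts in all libraries. On the Cul4a side they were Lamp1, a lysosomal membrane protein, Grtp1 and Adprhl1. Lamp1 was at 323, 315 and 318 CPM in the heterozygous libraries and at 285, 313 and 299 CPM in the null ones. Its groups did not overlap, as for 6.47% of genes tested in this direction, but the difference was small (-0.09, SE 0.06, edgeR adjusted p = 0.846). Grtp1 had a log2 fold change of 0.03 (edgeR adjusted p = 0.988). Adprhl1 lay at or under 0.114 CPM in every library and was not tested. It had 3, 3 and 4 counts in the heterozygous libraries and 0, 1 and 1 in the null ones. These groups did not overlap, but the counts are near the limit of detection. Another untested gene of the wider row, with at most 2 counts in a library, did not overlap in the opposite direction. Tmem255b was at 0.303 to 1.14 CPM in heterozygous and 0.118 to 0.770 CPM in null libraries, and its interval, -1.99 to 0.66, includes the value of Proz.

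**Figure D3:**
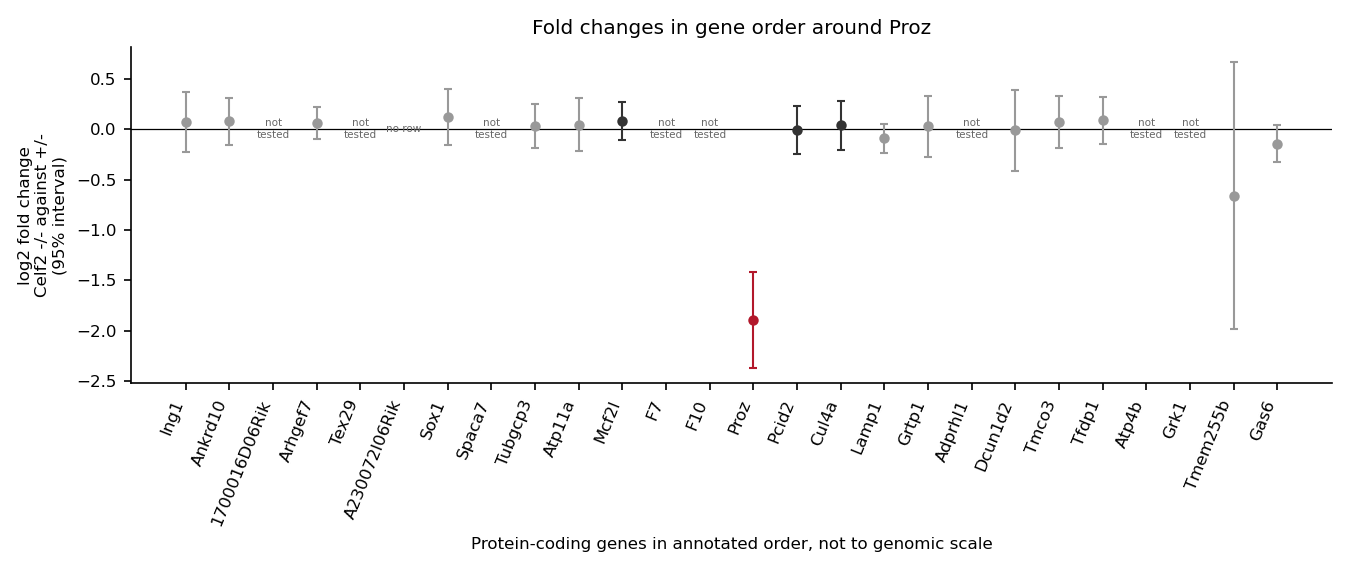
Log2 fold change of null against heterozygous libraries with its 95% interval (y axis) for protein-coding genes in annotated order around Proz (x axis, not to scale), with Proz in red, its tested neighbours in black and the wider row in grey. Proz lies at -1.89, and the 16 other tested genes lie between -0.66 and 0.12.

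The wider row holds another vitamin K-dependent gene, Gas6, 12 places from Proz. Gas6 encodes a ligand of the receptor kinases Tyro3, Axl and Mertk and is made in the brain itself. It was at 77.6, 82.4 and 83.3 CPM in the heterozygous libraries and at 70.0, 71.1 and 79.2 CPM in the null ones. The groups overlapped, with a fitted log2 difference of -0.14 (SE 0.08, 95% interval -0.32 to 0.04, edgeR adjusted p = 0.803). The interval ends well above that of Proz.

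Genes that share the biochemistry of Proz were described next, where edgeR called 0.00628% of all genes tested, Proz alone. Vitamin K-dependent proteins carry Gla residues, made by the carboxylase Ggcx with vitamin K that Vkorc1 recycles. Of 14 such genes besides Proz, 7 were tested, and 0 were called lower and 0 higher by edgeR. Their median log2 fold change was -0.06, with a range of -0.27 for Mgp to 0.15 for Pros1. Pros1 encodes protein S, a cofactor of the anticoagulant system, and was at 8.90 to 10.8 CPM in heterozygous and 9.72 to 12.2 CPM in null libraries (edgeR adjusted p = 0.906). The 7 untested genes included the plasma proteases F2, F9 and Proc, each at or under 0.119 CPM in every library.

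All 7 genes of the vitamin K cycle and carboxylation were tested, with a median of -0.02. By edgeR 0 were called in either direction, where 0.00628% of all genes tested were. Ggcx was at 14.6, 14.0 and 12.5 CPM in the heterozygous libraries and at 15.0, 14.7 and 10.5 CPM in the null ones (log2 fold change -0.03, edgeR adjusted p = 0.989). Vkorc1 had a log2 fold change of 0.02 (adjusted p = 0.990). Both ranges overlapped between the groups.

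The partners of Proz, F7 and F10 in clotting were either near 0 or did not pass the threshold. Serpina10, the inhibitor that protein Z assists, had at most 0.215 CPM in any library and was not tested. F3, the tissue factor that astrocytes make in the brain, was at 12.9, 11.6 and 9.71 CPM in the heterozygous libraries and at 11.9, 11.5 and 7.82 CPM in the null ones (log2 fold change -0.13, edgeR adjusted p = 0.943). Tfpi, the inhibitor of the F3 and F7 complex and of active factor X, had a log2 fold change of 0.02 (adjusted p = 0.994). Of 13 other clotting factors 5 were tested, with a median log2 fold change of 0.16. Of 18 anticoagulant and fibrinolysis genes 12 were tested (median 0.01), and of 7 receptors for clotting proteases and Gas6, 6 were tested (median -0.13). Of these 23 genes, 0 were called in either direction by edgeR, where 0.00628% of all genes tested were.

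Over all 5 lists 59 genes besides Proz were in the table and 37 were tested, with a median of -0.02. By edgeR 0 of the 37 were called, where 0.00628% of all genes tested were. At an unadjusted p of 0.05 edgeR counted 1 lower and 2 higher, where 7.06% of all genes tested passed in either direction, and DESeq2 called 0, where it called 0.402% of genes. The largest fold changes were those of Plaur, the urokinase receptor (1.13), and F2rl1, a protease-activated receptor (-0.62). Plaur was at 2.93 CPM in null replicate 4 and at 0.541 to 0.945 CPM in the other libraries. F2rl1 was at 1.17 CPM in heterozygous replicate 11 and at 0.101 to 0.444 CPM in the others, so in both genes 1 library stood apart. Their edgeR adjusted p were 0.707 for Plaur and 0.936 for F2rl1.

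**Figure D4:**
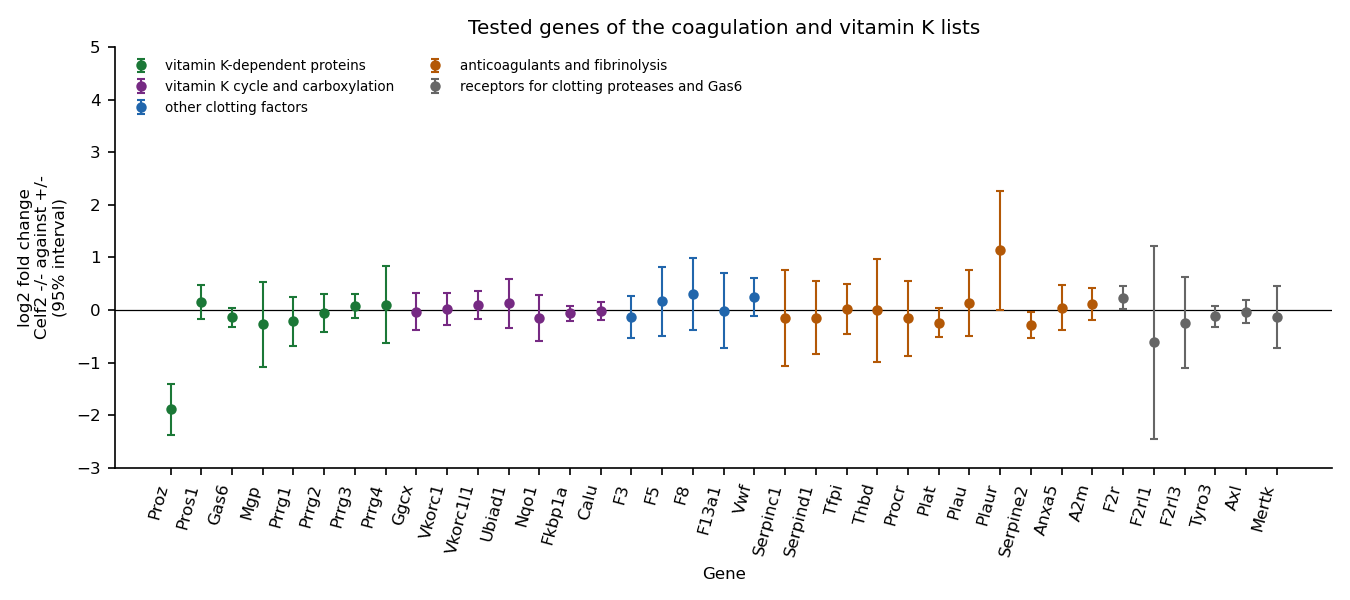
Log2 fold change of null against heterozygous libraries with its 95% interval (y axis) for Proz and 36 of the 37 other tested genes of the coagulation and vitamin K lists (x axis), coloured by list. Proz lies at -1.89, and the other genes shown lie between -0.62 (F2rl1) and 1.13 (Plaur).

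Markers of the liver, the usual source of plasma protein Z, were near 0 in all libraries. The 14 hepatocyte markers summed to 2.56 to 3.06 CPM in heterozygous and 2.28 to 3.26 CPM in null libraries, less than the Proz level alone in the heterozygous ones. Alb, the most abundant hepatocyte transcript, was at 0 to 0.101 CPM, and Fgb was listed at 0 in every library. Of the 14, 3 were tested and 0 were called by edgeR, where 0.00628% of all genes tested were. Of 10 erythroid markers in the table, 6 globin genes, which have near-identical copies, were listed at 0 in all libraries, and the 10 summed to 6.32 to 11.6 and 5.60 to 8.19 CPM.

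Hox genes, listed here as hindbrain markers, had lower mean levels in null libraries, with none called. The 13 genes, 12 Hox genes and Egr2, summed to 22.4, 194 and 11.7 CPM in the heterozygous libraries and to 5.04, 14.2 and 3.77 CPM in the null ones. In heterozygous replicate 7, Hoxa5 was at 48.5 and Hoxb5 at 43.6 CPM, and both were at most 0.918 CPM in every other library. Hoxa2 was at 2.82, 6.46 and 1.65 CPM in the heterozygous libraries. The genes of the list thus differed in how far replicate 7 stood apart, and the sum is not a measure of hindbrain content alone. Of 9 tested, 0 were called by edgeR, where 0.00628% of all genes tested were. Lower values with an unadjusted p under 0.05 were found for 5, where 2.93% of all genes tested had them, and lower values without overlap for 6, where 6.47% did. The 8 tested Hox genes had log2 fold changes of -5.01 to -1.97, and Egr2 had one of 1.26 (edgeR adjusted p = 0.888). Egr2 alone was at 7.11 CPM in null replicate 4 and lay between 0.306 and 1.3001 CPM in the other libraries. Without Egr2, left out after its values were seen, the markers summed to 21.1, 193 and 10.6 CPM in the heterozygous libraries and to 3.74, 7.08 and 3.47 CPM in the null ones. This sum, like Proz, was lower in every null library than in every heterozygous one. Among heterozygous libraries Proz ran from 4.25 to 5.21 CPM, with the highest value in replicate 11, where the markers were lowest. The sum does not tell hindbrain from other tissue that expresses these genes, and the part of such tissue in the Proz difference was not tested. The 8 choroid plexus markers summed to 587 to 864 CPM in heterozygous and 560 to 818 CPM in null libraries, and the 8 endothelial markers to 220 to 249.6 and 220 to 274 CPM, so both overlapped.

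**Figure D5:**
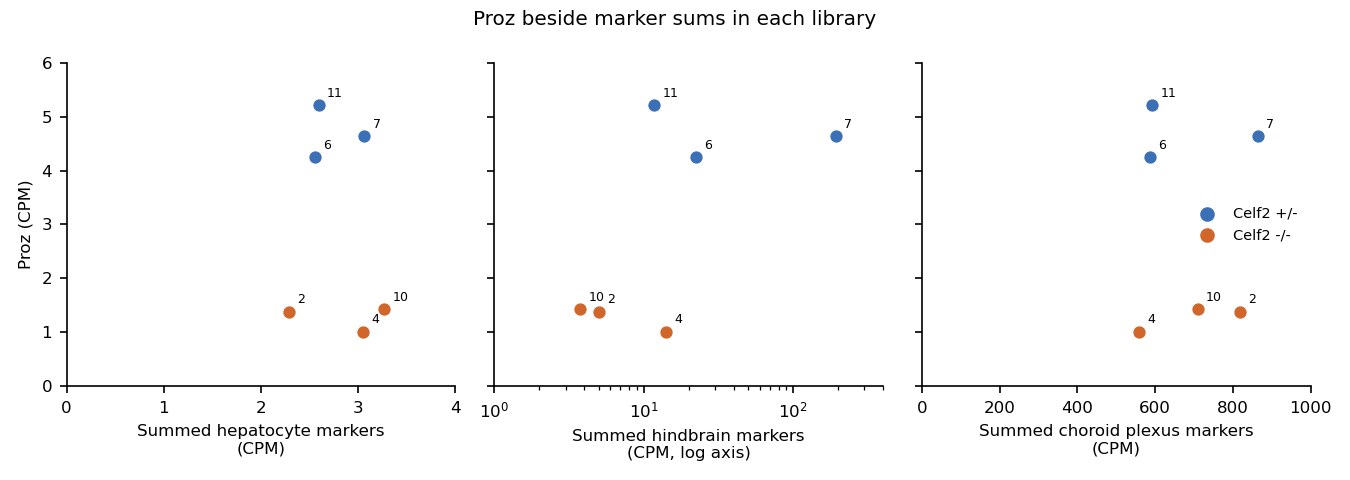
Proz level in CPM (y axis) against the summed CPM of hepatocyte, hindbrain (log axis) and choroid plexus markers (x axes) in each library, numbered by replicate, with heterozygous libraries in blue and null libraries in orange. The sum of the hindbrain marker list in heterozygous replicate 7 is 194 CPM, with Hoxa5 at 48.5 and Hoxb5 at 43.6 CPM. The Proz level of that library lies between those of replicates 6 and 11.

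The genes whose pattern over the 6 libraries was most like that of Proz were sought by the root-mean-square difference of centred log2 CPM. The search covered 13656 tested genes with a mean of at least 1 CPM, with Gm and Rik symbols left out. The likest 5 were Phyhd1 (0.48), Camk2a (0.56), Rgs14 (0.56), Crhbp (0.56) and Pvalb (0.58), where the median over all ranked genes was 0.95. Pcid2 (0.93), Cul4a (0.95) and Mcf2l (0.97) lay at that median. Phyhd1, a dioxygenase relative, was at 8.85, 10.2 and 10.4 CPM in the heterozygous libraries and at 5.71, 4.59 and 5.54 CPM in the null ones. Camk2a, which encodes a kinase subunit, had 103, 107 and 121 CPM in heterozygous and 69.3, 60.1 and 68.6 CPM in null libraries. In all 5 genes the groups did not overlap and null libraries were lower, which follows from the measure, and their log2 fold changes lay between -0.90 and -0.74, smaller than that of Proz.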

How the data were processed

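RNA was measured in 6 hemibrain libraries, 3 per genotype. The authors deposited raw read counts per gene symbol with a gene length. Per the submitters' processing notes, the tools include STAR, cutadapt, Picard and bedtools, with the builds mm9 and hg19. The counter, with its annotation and use of strand, is not given in the sources used here. The labels name a stranded total-RNA kit and the design text poly(A) RNA; this was not resolved.

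The members and gene lists were chosen with earlier results of these data known. Genes were filtered with filterByExpr (15925 of 24391 kept), scaled by TMM and tested with edgeR 4.0.16 (quasi-likelihood, robust, R 4.3.3), Benjamini-Hochberg adjusted at 0.05 over all genes. SE is the fold change over the square root of F. BCV was 13.9%. Named were the 6 members, Celf2, the 3 nearest genes on each side, clotting partners by role, called genes, the 3 largest list changes (1 is counted but not reported here) and the 5 likest genes. Camk2a as next to the threshold, Tmem255b, Sox1 and Mgp as ends of a range, and marker genes were named after values were seen. The smallest chi-square per gene between libraries was 13.4, so none was a repeat. Alternatives used limma 3.58.1 and DESeq2 1.42.0. On simulated counts for this comparison with 15828 genes, the test recovered 100 of 100 genes with a 4-fold and 97 of 100 with a 2-fold change, and made 9 false calls. The simulated counts gave every gene the same BCV of 13.9% and changed only genes above a minimum count. They do not show how many changes of that size the real libraries would reveal.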

Additional observations from a re-analysis of the deposited data

How the results depend on the processing

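Each comparison was repeated under 15 alternatives: library size alone, upper-quartile factors, DESeq2 size factors, no low-count filter, a CPM minimum, no robust dispersion, Rn45s removed, the DESeq2 Wald test, limma-voom and each library left out. The log2 fold change of Proz ran from -1.99 (null replicate 10 left out) to -1.74 (null replicate 4 left out), and relative to the median of Mcf2l, Pcid2 and Cul4a between -2.01 and -1.85. In all 15, 0 of the adjacent genes, 0 of the wider row and 0 of the coagulation and vitamin K genes were called. The adjusted p of Proz, 0.0492 with edgeR, was 0.0541 with DESeq2 size factors, 0.0531 with the CPM minimum, 0.0688 without robust dispersion, 0.0548 without Rn45s and 0.114 with limma-voom. It was 0.0293 with upper-quartile factors, 0.00570 with library size alone, 0.00418 with no low-count filter and 3.18e-08 with the DESeq2 Wald test. It lay between 0.0448 and 0.290 without single libraries, under 0.05 only without null replicate 10.

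The neighbours' fold changes are near 0 and some changed sign with no call. With library size alone Mcf2l was at -0.0043 and Cul4a at -0.051. Leaving out single libraries, Cul4a ran from -0.039 (without heterozygous replicate 6) to 0.15 and was at -0.025 without null replicate 10. Pcid2 ran from -0.096 to 0.057 (without null replicate 2), with 0.031 without heterozygous replicate 11 and 0.0060 without null replicate 4. Celf2 was at 0.028 without heterozygous replicate 6 and 0.039 without null replicate 10, within a range of -0.18 to 0.039. No paired analysis was possible because the labels give no litter. Depth limits F7 and F10, which had at most 14 counts in a library.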
